A study of Homo sapiens with 4 samples.

Results

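The rRNA 2′-O-methylation profile of HAP1 cells carrying PAF49 without a named deletion was taken from 2 of the 4 RiboMethSeq libraries of the series, PAF49-GFP and PAF49, at every listed rRNA position. Of these positions 67 belong to 28S, 39 to 18S and 2 to 5.8S rRNA. HAP1 is a human cell line that came from leukaemia cells and is nearly haploid. Each label had 1 library of total RNA. PAF49-GFP names the protein with a fluorescent tag, PAF49 names it without one, and the remaining libraries of the series carry deletions in its disordered region and serve here only as a check of the classes. PAF49 (POLR1G) belongs to RNA polymerase I, the enzyme that makes the long precursor of 18S, 5.8S and 28S rRNA. The labels do not say how the cell lines were made, whether either is 1 clone, whether the cells kept their own PAF49, or how strongly the tagged protein was made. The table holds rRNA positions only, so neither the HAP1 label nor the level of PAF49 could be checked against marker genes.

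In human cells, a methyl group is added to the ribose of chosen rRNA nucleotides mainly by fibrillarin, an enzyme that works in the nucleolus. A box C/D small nucleolar RNA (SNORD) that base-pairs with the precursor directs fibrillarin to each of its sites. Many of these nucleotides lie in the conserved functional core of the ribosome, and some are methylated in only a share of ribosomes. In RiboMethSeq the RNA is cut by mild alkali. The methyl group protects the adjoining bond, and few read ends at a position therefore give a high score. The MethScore deposited by the authors runs from 0 to below 1. Sites are named by rRNA, methylated nucleotide (Am, Cm, Gm or Um) and position, as deposited.

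The 2 libraries were averaged at each site, and sites were called near-complete at a mean MethScore of 0.9 or above, partial from 0.5 to under 0.9, and low under 0.5. The difference between PAF49-GFP and PAF49 was the only measure of spread. It cannot tell variation between libraries apart from an influence of the tag, and no test was possible. Read depth is unknown.

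By this rule 57 sites (52.8%) were near-complete, 44 were partial and 7 were low. The mean MethScore had a median of 0.906 over sites, and it ran from 0.00712 at 28S-Um2044 to 0.991 at 28S-Gm2364. Most of the sites were close to the top of the scale: 84 had a mean of 0.8 or above, 27 had 0.95 or above and 5 had 0.98 or above. Below 0.8 the profile thinned out, with 10 sites from 0.7 to under 0.8, 4 from 0.6 to under 0.7, 3 from 0.5 to under 0.6 and the 7 low sites.

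**Figure D1:**
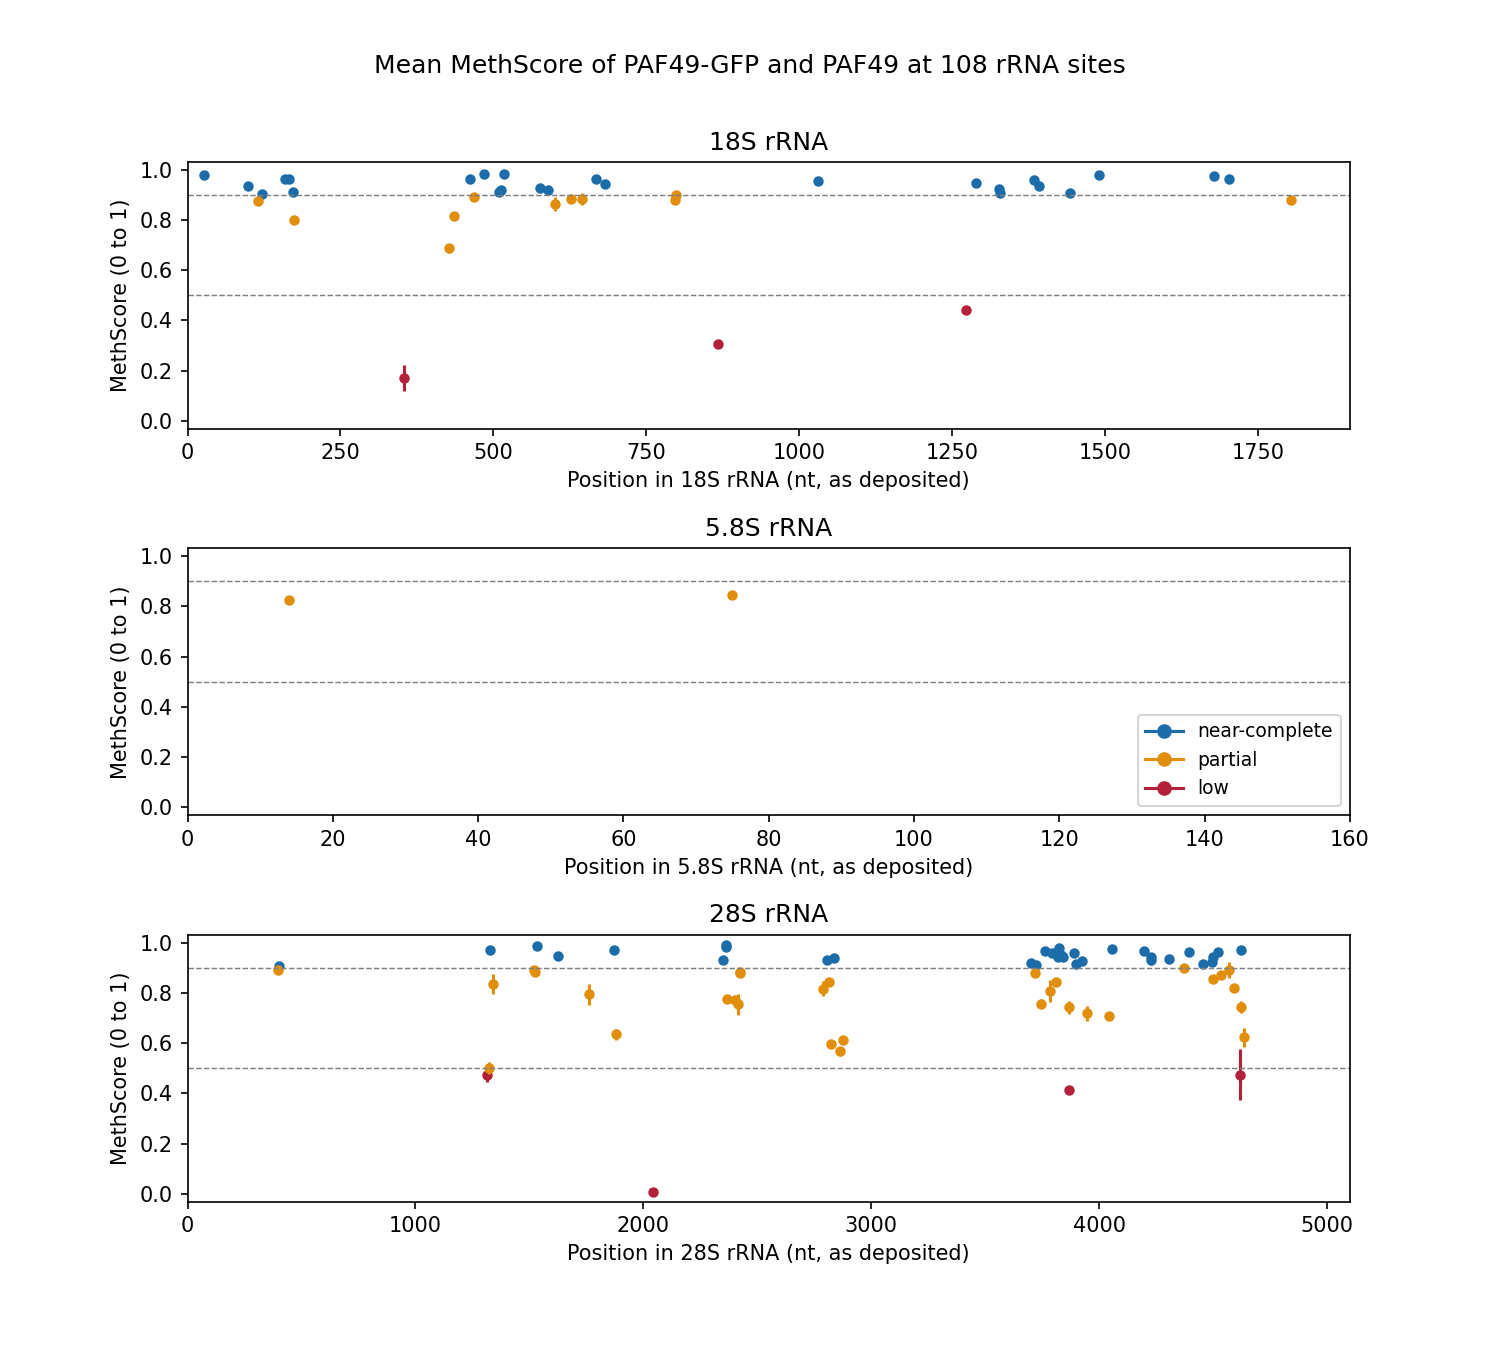
Mean MethScore (vertical axis, 0 to 1) against position in 18S, 5.8S and 28S rRNA (horizontal axis, nt as deposited) for all listed sites. Points are means of PAF49-GFP and PAF49, vertical bars join the scores of the 2 libraries, colours give the class, and dashed lines mark 0.5 and 0.9; the 7 low sites lie apart from one another along 18S and 28S rRNA.

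The class limits fell in parts of the profile of different density. Around 0.9 the sites were crowded, and 9 sites had a mean within 0.01 of the limit. Just inside it, 18S-Um121 scored 0.899 in PAF49-GFP and 0.904 in PAF49, 18S-Um1442 scored 0.910 and 0.901, and 18S-Gm1328 scored 0.896 and 0.915, in the same order. Just outside it, 18S-Um799 scored 0.891 in PAF49-GFP and 0.908 in PAF49, 28S-Gm4370 scored 0.884 and 0.910, and 18S-Am468 scored 0.881 and 0.902. At 5 of these 6 sites the libraries lay on opposite sides of 0.9, so the class of a site near this limit is not settled by these data.

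Around 0.5 the sites were few. Inside the limit, 28S-Am1323 had a mean of 0.501, 28S-Cm2861 of 0.567 and 28S-Cm2824 of 0.598. Outside it, 28S-Gm4618 had a mean of 0.474, 28S-Gm1316 of 0.473 and 18S-Cm1272 of 0.441. Taken one at a time, the libraries placed 97 sites in the same class. Of the other 11, 8 lay at the 0.9 limit, of which 6 were near-complete in PAF49 only (18S-Um121, 18S-Am468, 18S-Gm644, 18S-Um799, 18S-Gm1328 and 28S-Gm4370) and 2 in PAF49-GFP only (28S-Am400 and 28S-Am4571). The remaining 3 lay at the 0.5 limit: 28S-Gm1316 was low in PAF49-GFP only, and 28S-Am1323 and 28S-Gm4618 were low in PAF49 only.

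18S rRNA, the RNA of the small subunit, had 25 near-complete, 11 partial and 3 low sites among 39, with a median mean score of 0.918. 28S rRNA, the main RNA of the large subunit, had 32 near-complete, 31 partial and 4 low sites among 67, with a median of 0.891. The near-complete share was thus 64.1% in 18S and 47.8% in 28S rRNA. In the libraries singly it was 23 sites of 18S and 33 of 28S rRNA in PAF49-GFP, and 28 and 32 in PAF49. Sites are not replicates, and the difference between the rRNAs was not tested.

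**Figure D2:**
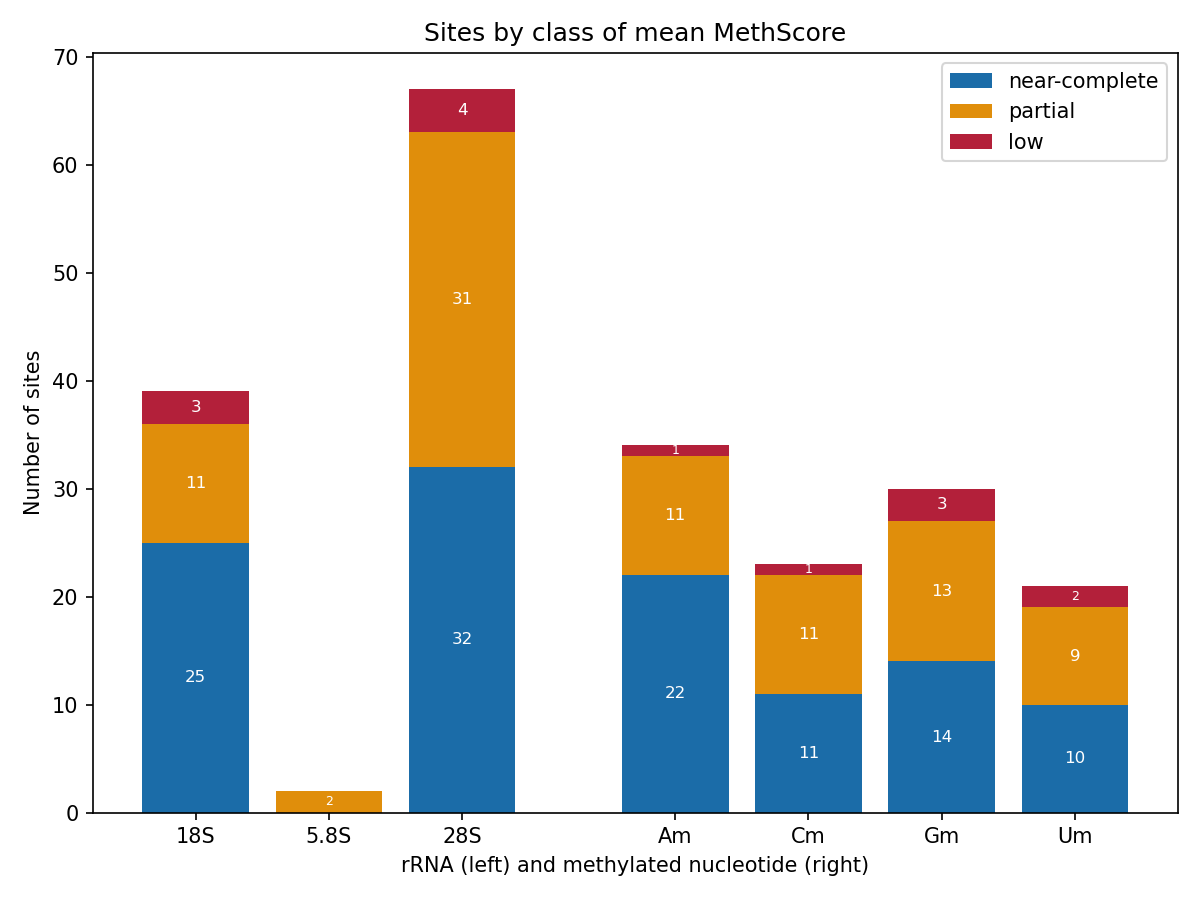
Number of sites (vertical axis) in each class of mean MethScore, by rRNA and by methylated nucleotide (horizontal axis). The numbers in the bars are counts; 22 of 34 adenosines are near-complete, and 31 of the 67 sites of 28S rRNA are partial.

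5.8S rRNA, which pairs with 28S rRNA in the large subunit, had its 2 sites in the partial class. 5.8S-Um14, guided by SNORD71, scored 0.833 in PAF49-GFP and 0.818 in PAF49. 5.8S-Gm75, guided by SNORD96A, scored 0.846 in PAF49-GFP and 0.848 in PAF49. Both sites scored alike in the 2 libraries, to within 0.0152 and 0.00157.

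Pooled over the rRNAs, adenosines had the highest median score of the nucleotides. Near-complete sites made up 22 of 34 adenosines (64.7%), 11 of 23 cytidines (47.8%), 14 of 30 guanosines (46.7%) and 10 of 21 uridines (47.6%), and the median mean scores were 0.931, 0.879, 0.893 and 0.8995 in that order. The adenosine share came from 18S rRNA, where 12 of 13 adenosines were near-complete, beside 13 of the 26 other sites. In 28S rRNA 10 of 21 adenosines were near-complete, beside 22 of the 46 others. The count was 11 of 21 in PAF49-GFP, beside 22 of 46 others, and 9 of 21 in PAF49, beside 23 of 46 others. The 28S adenosine median of 0.891 lay below those of uridines (0.926) and guanosines (0.897) and above that of cytidines (0.874). The order of adenosines and guanosines was not resolved, with medians of 0.911 and 0.892 in PAF49-GFP and 0.891 and 0.910 in PAF49. The 18S count was 12 of 13 in PAF49-GFP, beside 11 of 26 others, and 13 of 13 in PAF49, beside 15 of 26 others.

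Uridines differed from the other nucleotides at the top of the range. None of the 21 uridines had a mean score of 0.95 or above, where 16 of 34 adenosines, 5 of 23 cytidines and 6 of 30 guanosines lay. The highest uridine was 18S-Um1288, at 0.952 in PAF49-GFP and 0.941 in PAF49. Each library alone had 1 uridine past 0.95, and these were different sites: 18S-Um1288 in PAF49-GFP, and in PAF49 28S-Um4227, which scored 0.935 in PAF49-GFP and 0.953 in PAF49. These patterns by nucleotide were chosen after the values were seen and were not tested, and the part that the assay's own handling of each nucleotide plays in them was not tested.

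By mean score, near-complete sites of 18S rRNA were led by 18S-Am484, with 0.985 in PAF49-GFP and 0.981 in PAF49. 18S-Cm517 scored 0.984 in PAF49-GFP and 0.982 in PAF49. 18S-Am27, guided by SNORD27 near the 5′ end of the molecule, scored 0.972 in PAF49-GFP and 0.985 in PAF49. The next in order were 18S-Gm1490, with 0.979 in PAF49-GFP and 0.976 in PAF49, and 18S-Am1678, with 0.975 in both libraries. The first and second of these differ in mean by less than either differs between libraries, so their order is not resolved. 18S-Am27 overlapped with each of the other sites named here in the scores of the libraries. It was the highest site of 18S rRNA in PAF49 alone, so its place is not resolved either.

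The other near-complete adenosines of 18S rRNA were Am99, Am159, Am166, Am512, Am576, Am590, Am668, Am1031 and Am1383, and all 12 had means from 0.918 to 0.983. The 4 near-complete cytidines (Cm462, Cm517, Cm1391 and Cm1703) had means from 0.933 to 0.983, and the 4 guanosines (Gm509, Gm683, Gm1328 and Gm1490) from 0.906 to 0.977. The 5 uridines (Um121, Um172, Um1288, Um1326 and Um1442) reached from 0.901 to 0.946. Among these, 18S-Cm462 is guided by SNORD14, the U14 RNA that is also needed for cutting of the 18S precursor, and it scored 0.956 in PAF49-GFP and 0.969 in PAF49. 18S-Cm1703, guided by SNORD43, lies in helix 44 by the decoding centre, where codon and anticodon are read, and it scored 0.963 in PAF49-GFP and 0.959 in PAF49.

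In 28S rRNA the highest site was 28S-Gm2364, with 0.991 in PAF49-GFP and 0.992 in PAF49. 28S-Am1534 scored 0.987 in PAF49-GFP and 0.984 in PAF49, and 28S-Am2363, the nucleotide before the top site, scored 0.981 in PAF49-GFP and 0.982 in PAF49. 28S-Am3825 scored 0.974 in PAF49-GFP and 0.979 in PAF49, and 28S-Cm4054 scored 0.977 and 0.975. At these 5 sites the libraries differed by at most 0.00472, and only the last of them overlapped with the one before it in the scores of the libraries.

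The 10 near-complete adenosines of 28S rRNA were Am400, Am1326, Am1534, Am1871, Am2363, Am3724, Am3760, Am3825, Am3830 and Am4523, with means from 0.906 to 0.986. The 7 cytidines (Cm2351, Cm2804, Cm3701, Cm3841, Cm3887, Cm4054 and Cm4456) had means from 0.915 to 0.976. The 10 guanosines (Gm1625, Gm2364, Gm3792, Gm3899, Gm4196, Gm4228, Gm4392, Gm4494, Gm4499 and Gm4623) ran from 0.914 to 0.991, and the 5 uridines (Um2837, Um3818, Um3925, Um4227 and Um4306) from 0.926 to 0.944.

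Sites of the peptidyl transferase centre were among those scored. 28S-Gm4196 lies in the P loop, which holds the end of the tRNA carrying the growing chain, and it scored 0.969 in PAF49-GFP and 0.962 in PAF49. 28S-Um4498 and 28S-Gm4499 are neighbours in the A loop, which holds the end of the incoming tRNA; in yeast the matching guanosine is methylated by Spb1, an enzyme that uses no guide RNA. 28S-Gm4499 scored 0.943 in both libraries. 28S-Um4498 scored 0.869 in PAF49-GFP and 0.844 in PAF49, below its neighbour in both, and was therefore partial.

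The partial class held 31 of the 67 sites of 28S rRNA, 11 of the 39 of 18S rRNA and both sites of 5.8S rRNA. A mean under 0.7 was found at 6 of the 31 partial sites of 28S rRNA and at 1 of the 11 of 18S rRNA. The one in 18S rRNA was 18S-Um428, with 0.706 in PAF49-GFP and 0.669 in PAF49. Next above it in 18S rRNA came 18S-Cm174, with a mean of 0.798, and 18S-Gm436, with a mean of 0.816.

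The remaining partial sites of 18S rRNA were close to the 0.9 limit. They were Um116, Am468, Gm601, Um627, Gm644, Cm797, Um799 and Um1804, with means from 0.862 at 18S-Gm601 to 0.8995 at 18S-Um799. 18S-Am468 was the only adenosine of 18S rRNA in this class.

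Among partial sites of 28S rRNA, 28S-Am1323 was the lowest, with 0.525 in PAF49-GFP and 0.476 in PAF49. 28S-Cm2861 scored 0.586 in PAF49-GFP and 0.548 in PAF49, and 28S-Cm2824 scored 0.599 and 0.597. 28S-Cm2824 was the most alike between libraries of the sites with a mean under 0.7. 28S-Gm2876 scored 0.621 in PAF49-GFP and 0.607 in PAF49. 28S-Gm4637, the last site in the numbering, scored 0.661 in PAF49-GFP and 0.584 in PAF49, and 28S-Cm1881, guided by SNORD48, scored 0.656 and 0.613. Each of these 6 scored higher in PAF49-GFP than in PAF49, by 0.00181 to 0.0770, as did 27 of all 44 partial sites and 65 sites of the whole profile, while 43 were lower. In order of means, the first 4 did not overlap with one another in the scores of the libraries, while 28S-Gm2876, 28S-Gm4637 and 28S-Cm1881 did. 28S-Gm4637 also overlapped with 28S-Cm2861 and 28S-Cm2824, so its place in the order is not resolved.

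The other partial sites of 28S rRNA had means from 0.708 to 0.897. They were 9 adenosines (Am398, Am1524, Am2401, Am2787, Am2815, Am3718, Am3785, Am4571 and Am4590), 6 cytidines (Cm1340, Cm2365, Cm2422, Cm3808, Cm3869 and Cm4536), 7 guanosines (Gm1522, Gm1760, Gm2424, Gm3744, Gm3944, Gm4042 and Gm4370) and 3 uridines (Um2415, Um4498 and Um4620). The lowest of these was 28S-Gm4042.

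**Figure D3:**
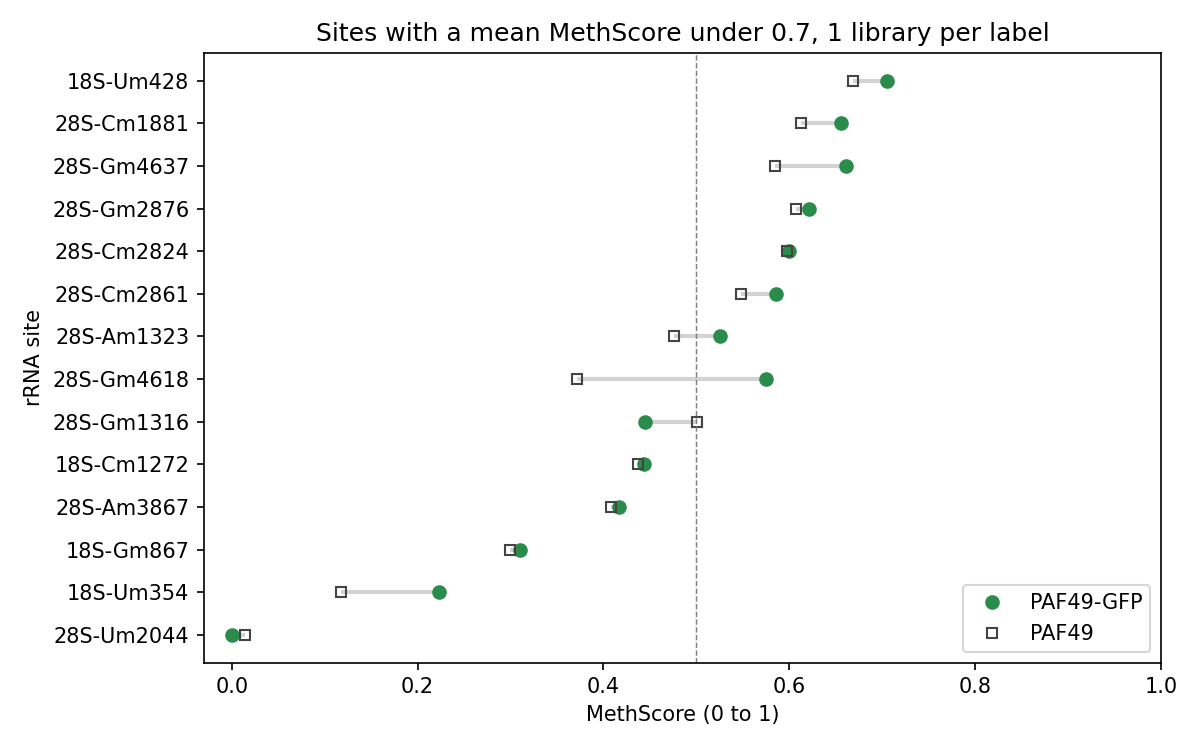
MethScore (horizontal axis, 0 to 1) of the 14 sites with a mean under 0.7, ordered by mean. Filled circles are PAF49-GFP and open squares PAF49, 1 library each, and the dashed line marks 0.5; 28S-Gm4618 has the widest gap between the libraries and 28S-Cm2824 the narrowest.

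Of the 7 low sites, 3 lay in 18S and 4 in 28S rRNA, and 3 were guanosines, 2 uridines, 1 a cytidine and 1 an adenosine. The value of 28S-Um2044 in PAF49-GFP is listed as 0, and it was 0.0142 in PAF49. No more than a trace of protection was thus scored there in either library, and without read counts a limit on it could not be given. 18S-Um354, guided by SNORD90, scored 0.224 in PAF49-GFP and 0.117 in PAF49. 18S-Gm867, guided by SNORD98, scored 0.310 in PAF49-GFP and 0.299 in PAF49, and 18S-Cm1272, guided by SNORD66, scored 0.444 and 0.437. At 18S-Gm867 and 18S-Cm1272 the libraries differed by no more than 0.0110.

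The other low sites of 28S rRNA lay closer to the limit than 28S-Um2044 did. 28S-Gm4618 scored 0.575 in PAF49-GFP and 0.372 in PAF49, the widest gap of any site. 28S-Am3867 scored 0.417 in PAF49-GFP and 0.408 in PAF49, and was low in both. 28S-Gm1316 scored 0.445 in PAF49-GFP and 0.5003 in PAF49. For 28S-Gm1316 and 28S-Gm4618 the low class rests on the average, since each was low in a single library. By library, 5 sites were low in both: 28S-Um2044, 18S-Um354, 18S-Gm867, 28S-Am3867 and 18S-Cm1272.

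Along 18S rRNA, near-complete sites made up 13 of 19 up to position 600, 3 of 9 above 600 up to 1200 and 9 of 11 above 1200. The middle stretch had a median mean score of 0.884, beside 0.918 before it and 0.933 after it. This rested on PAF49-GFP, in which the medians were 0.913, 0.891 and 0.933 along the molecule. In PAF49 they were 0.910, 0.908 and 0.936, so the first and middle stretches barely differed there. The middle stretch had 3 near-complete sites in PAF49-GFP and 5 in PAF49. Each stretch held 1 low site.

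In 28S rRNA, 4 of 10 sites were near-complete up to position 1700, 6 of 19 above 1700 up to 3400 and 22 of 38 above 3400. The median mean scores were 0.889, 0.816 and 0.917 in that order. The middle stretch had 9 of its 19 sites under 0.8, against 2 of 10 before it and 8 of 38 after it. Its near-complete count of 6 was the same in both libraries. Sites were absent from long intervals of the listed numbering, the widest being 916 nt between 28S-Am400 and 28S-Gm1316 and 825 nt between 28S-Gm2876 and 28S-Cm3701.

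Some sites sit so close that their scores can be set side by side within 1 stretch of RNA. There were 12 pairs of neighbouring sites 1 or 2 nt apart, made up of 23 sites, and in 6 of the 12 pairs both sites were in the same class. The difference in mean score within such a pair ran from 0.00599 to 0.330, with a median of 0.0503 in the 4 pairs 1 nt apart and 0.0186 in the 8 pairs 2 nt apart. In the 21 neighbouring pairs 3 to 10 nt apart the median was 0.0651 and 10 pairs shared a class, and in the 72 pairs further apart it was 0.0672 and 34 shared a class. Sharing a class was thus about as common at every spacing. The median difference was smallest in the 8 pairs 2 nt apart, and that of the 4 pairs 1 nt apart was also below those at wider spacings. Both medians rest on few pairs. The formula of the score and the neighbouring positions it draws on are not stated, so the part that shared reads play in the scores of close sites was not tested.

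Several close pairs scored almost alike. 28S-Gm1522 scored 0.892 in PAF49-GFP and 0.886 in PAF49, and 28S-Am1524 scored 0.889 and 0.877. 28S-Cm2422 scored 0.873 in PAF49-GFP and 0.882 in PAF49, and 28S-Gm2424 scored 0.878 and 0.890. In both pairs the 2 sites overlapped in the scores of the libraries. 28S-Am398 scored 0.886 in PAF49-GFP and 0.893 in PAF49, and 28S-Am400 scored 0.921 and 0.891.

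18S-Um1326 scored 0.908 in PAF49-GFP and 0.936 in PAF49, and 18S-Gm1328 scored 0.896 and 0.915. 18S-Cm797 scored 0.893 in PAF49-GFP and 0.865 in PAF49, and 18S-Um799, one of the sites at the 0.9 limit, scored 0.891 and 0.908. The adjoining 28S-Um4227 and 28S-Gm4228 were both near-complete, and 28S-Gm4228 scored 0.909 in PAF49-GFP and 0.951 in PAF49. That difference of -0.0414 was the widest of any near-complete site.

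In other pairs the neighbours were far apart in score. 28S-Am3867, a low site, stood 2 nt before 28S-Cm3869, which scored 0.716 in PAF49-GFP and 0.769 in PAF49. 28S-Gm4618 stood 2 nt before 28S-Um4620, which scored 0.769 in PAF49-GFP and 0.720 in PAF49, and 3 nt further on 28S-Gm4623 scored 0.972 and 0.965. Scores therefore stepped up across these 3 sites, from low to partial to near-complete by their means, and in the same order within each library.

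28S-Cm2365 directly follows 28S-Gm2364, the highest site of all, and scored 0.768 in PAF49-GFP and 0.781 in PAF49. The run of 3 adjoining methylated nucleotides at 2363 to 2365 thus held 2 of the 3 highest sites of 28S rRNA and a partial one. In 18S rRNA, 18S-Um172 scored 0.913 in PAF49-GFP and 0.910 in PAF49, and 18S-Cm174 scored 0.793 and 0.803. A larger step over 3 nt was seen between 28S-Am1323, with a mean of 0.501, and 28S-Am1326, with a mean of 0.969. In each of these pairs the gap between neighbours was larger than the difference between libraries at either site.

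**Figure D4:**
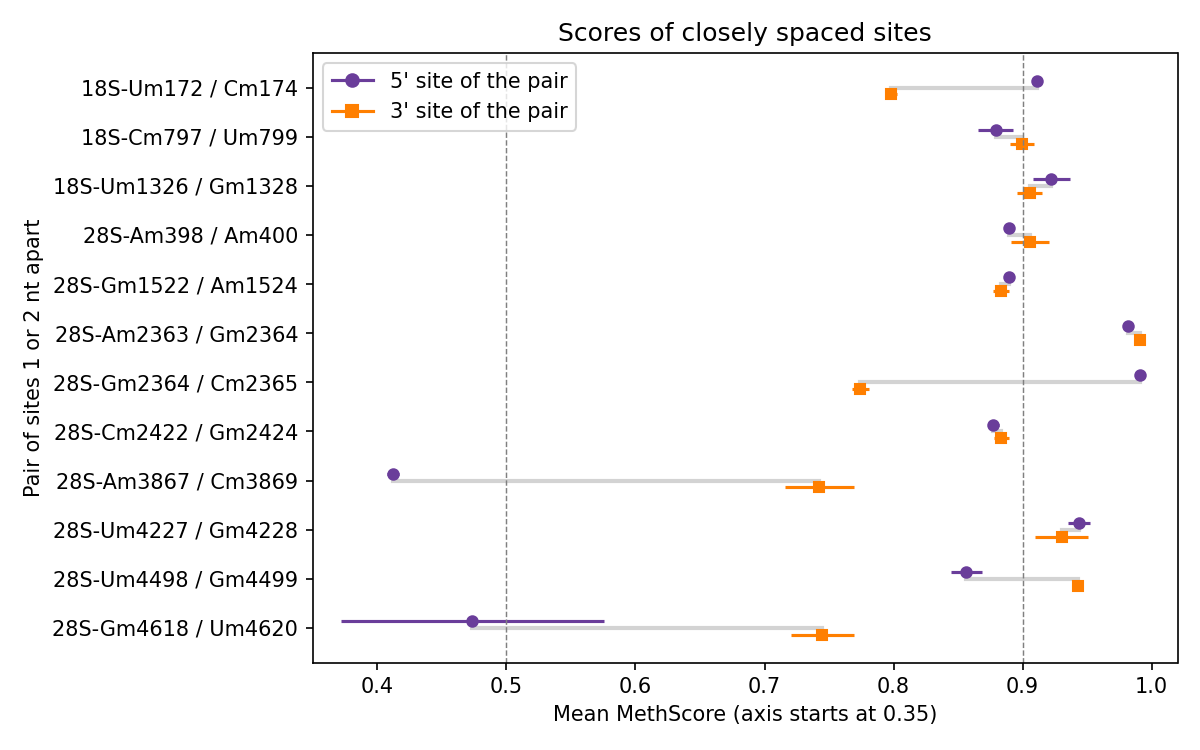
Mean MethScore (horizontal axis, starting at 0.35) of the 12 pairs of sites 1 or 2 nt apart. Circles are the 5′ site and squares the 3′ site of each pair, coloured bars join the scores of PAF49-GFP and PAF49, grey lines join the sites of a pair, and dashed lines mark 0.5 and 0.9; the widest step is at 28S-Am3867 and 28S-Cm3869.

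Within 10 nt of another listed site lay 55 sites, of which 28 were near-complete, 24 partial and 3 low. The other 53 sites comprised 29 near-complete, 20 partial and 4 low ones. The near-complete share was 50.9% with such a neighbour and 54.7% without one. Spacing at this scale was described only, and no test of it was made.

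The agreement of the libraries depended on the level of the site. The median absolute difference between PAF49-GFP and PAF49 was 0.00517 at near-complete sites, 0.0250 at partial sites and 0.0142 at low sites, and its maximum was 0.0414, 0.0861 and 0.203. Without 28S-Um2044, where both scores are at the bottom of the scale, the median at low sites was 0.0332, above that at partial sites. A difference under 0.02 was found at 52 of 57 near-complete, 18 of 44 partial and 4 of 7 low sites. Across all sites, the absolute difference and the mean score had a Spearman's rho of -0.62, a description over sites of the same 2 libraries whose scores are bounded at 1.

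**Figure D5:**
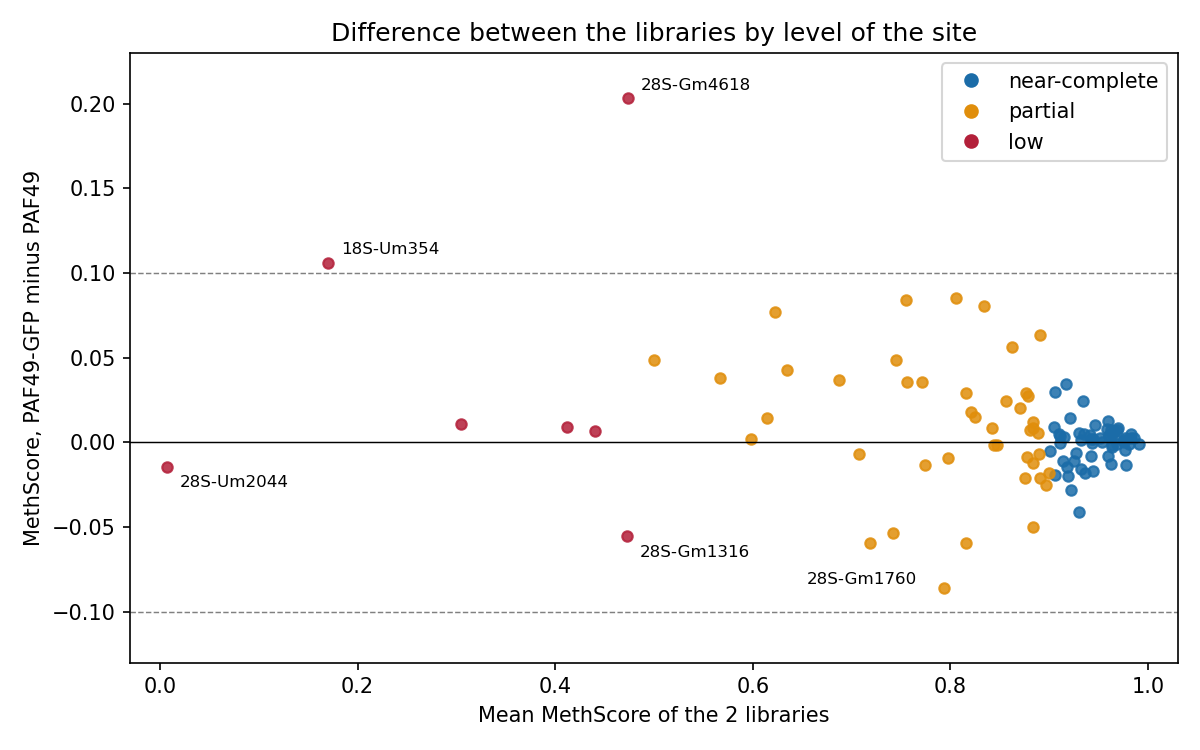
MethScore difference, PAF49-GFP minus PAF49 (vertical axis), against the mean MethScore of the 2 libraries (horizontal axis) at all listed sites. Colours give the class, and dashed lines mark differences of 0.1 either way; near-complete sites lie within 0.0414 of 0, and 28S-Gm4618 and 18S-Um354 are the only sites beyond a dashed line.

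Sites higher in PAF49-GFP by 0.1 or more numbered 2 (1.85% of all sites), 28S-Gm4618 and 18S-Um354, both low, and sites lower by that much numbered 0 (0%). At 0.05 or more, 13 sites (12.0%) differed, 8 higher (7.41%) and 5 lower (4.63%) in PAF49-GFP. These 13 were 10 of the 44 partial and 3 of the 7 low sites. By rRNA they were 11 of 67 sites in 28S and 2 of 39 in 18S rRNA. With no replicates, this count describes how far 2 libraries stood apart, not an effect of the tag.

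Of the 6 partial sites higher in PAF49-GFP by 0.05 or more, 5 lay in 28S and 1 in 18S rRNA. 28S-Am3785 scored 0.849 in PAF49-GFP and 0.764 in PAF49, 28S-Um2415 scored 0.797 and 0.713, and 28S-Cm1340 scored 0.874 and 0.794. 28S-Am4571 scored 0.922 in PAF49-GFP and 0.859 in PAF49, and 18S-Gm601 scored 0.890 and 0.834. 28S-Gm4637, given above, completed this group of 6.

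The 5 sites lower in PAF49-GFP by 0.05 or more were all in 28S rRNA. 28S-Gm1760 scored 0.751 in PAF49-GFP and 0.837 in PAF49, 28S-Gm3944 scored 0.689 and 0.748, and 28S-Am2787 scored 0.786 and 0.846. The others were 28S-Cm3869 and the low site 28S-Gm1316, given above. In both directions together, 6 of the 30 guanosines differed by 0.05 or more, beside 3 of 34 adenosines, 2 of 23 cytidines and 2 of 21 uridines, and 12.0% of all sites.

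The classes were then set beside those from the libraries of the series with a deletion, PAF49delta1/2IDR-GFP and PAF49deltaIDR-GFP, averaged in the same way. The class was the same at 99 sites. It was higher in the deletion libraries at 8 sites, where 28S-Gm1316 and 28S-Gm4618 were partial and not low, and 18S-Am468, 18S-Um627, 18S-Gm644, 28S-Am1524, 28S-Gm4370 and 28S-Am4571 were near-complete and not partial. It was lower at 1 site, 28S-Am3724. At 18S-Am468, 18S-Um627, 18S-Gm644, 28S-Am4571 and 28S-Am3724 the deletion libraries lay on opposite sides of 0.9, so these changes are not settled. The deletion means of 18S-Um627 and 18S-Gm644 were both 0.9003, just past the limit. At 28S-Gm1316, 28S-Gm4618, 28S-Am1524 and 28S-Gm4370 each deletion library alone gave the changed class. Of the 8 higher sites, 28S-Gm1316, 18S-Am468, 18S-Gm644 and 28S-Gm4370 also had the higher class in PAF49 taken singly. 28S-Gm4618 and 28S-Am4571 had it in PAF49-GFP taken singly, and 18S-Um627 and 28S-Am1524 had it in neither full-length library. The 9 sites that changed class compare with the 11 whose class differed between PAF49-GFP and PAF49. There, single libraries and not means of 2 were set side by side. All 5 sites that were low in both full-length libraries were also low in the mean of the deletion libraries.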

How the data were processed

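RiboMethSeq was run on total RNA of HAP1 cells, 1 library per label. Per the labels' protocols, TRI Reagent was used for extraction, RNA was hydrolysed in bicarbonate buffer, and end-repaired fragments went into a small RNA library kit for Illumina sequencing. Per the submitters' processing notes, Trimmomatic 0.36 and Bowtie2 2.3.3.1 were used, with no role or order given. The authors deposited a MethScore per rRNA position, headed as raw data and treated here as a fraction; its formula, the rRNA reference sequence and the filtering of positions are not given in the sources read here. The 4 fold-change columns were not used. No counts or coverage are given, so depth is unknown and no interval could be attached.

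Scores of PAF49-GFP and PAF49 were averaged per site and classed at 0.9 and 0.5 with Python 3.11.15, numpy 2.4.6 and pandas 2.3.3. The calculations were checked on the deposited mean scores with known changes added, and the distance to the nearest site on invented positions. No variation between libraries was simulated. No test between groups was possible. Sites given with both scores were those with a mean under 0.7, both 5.8S sites, the 5 highest of 18S and of 28S rRNA, the 3 on either side of each limit (means only where given elsewhere), those within 2 nt of another, and those differing by 0.05 or more; sites of known function were added. The members, limits and lists were chosen with earlier results of these data known. Guide RNAs and ribosomal locations named are textbook assignments matched through the deposited numbering, and no rRNA sequence was used here.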

Additional observations from a re-analysis of the deposited data

How the results depend on the processing

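With 57 near-complete, 44 partial and 7 low sites in the mean of 2 libraries, the counts moved by no more than 1.5 times with either library alone, the lower or higher score per site, the mean of 4 libraries, or libraries shifted to the same median. They moved with the limits: an upper limit of 0.95 gave 27 near-complete and 74 partial sites, one of 0.85 gave 26 partial sites, and a lower limit of 0.4 gave 3 low sites. The 2 sites higher and 0 lower in PAF49-GFP by 0.1 or more became 8 and 5 at 0.05. At 0.2, and at 0.1 after quantile normalisation, 1 site was higher. The median absolute difference at low sites, 0.0142, became 0.0332 without 28S-Um2044, which is listed at 0. The 55 sites (28 near-complete, 24 partial) with another within 10 nt became 34 (18 and 14) within 5 nt and 89 (46 and 39) within 20 nt, a change that the window itself makes. In all, 45 of 60 alternative values stayed within 1.5 times. Some of these could not change, such as the near-complete count under another lower limit and the low count under another upper limit. No paired analysis was possible because each label has 1 library. Unknown depth and the single difference per site limit every value.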
